A study of Sus scrofa with 8 samples.

Results

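The genes described here encode the proteins that coat hepatic lipid droplets and the lipase system that acts on them: the perilipins PLIN2, PLIN3, PLIN4 and PLIN5, the CIDE proteins CIDEB and CIDEC, the short-chain dehydrogenases HSD17B13 and HSD17B11, the triglyceride lipase PNPLA2 and its inhibitor G0S2. The members were chosen by gene symbol, and 9 of the 10 symbols had a row in a table of 20430 genes. HSD17B11 had no row of that name, so its place was taken by LOC100520923, whose product the pig annotation gives as an estradiol dehydrogenase of the HSD17B11 type. All 10 rows passed the filter on low values, which required 0.1 FPKM or more on average (fragments per kilobase of transcript scaled to the mapped reads of the library, a level per length).

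The livers came from 24 male Large White x Landrace pigs. All of them first spent 1 month on a steatotic diet, a feed short of choline and methionine that carried high amounts of saturated fat, fructose, cholesterol and cholate. For 1 further month, 12 pigs ate this diet with 0.5% squalene added (squalene group) and 12 ate it without squalene (control group), and livers were taken after an overnight fast. Hepatic RNA was combined in equal amounts from 3 pigs at a time, which gave 4 squalene and 4 control pools, each sequenced as polyA RNA on the DNBSEQ platform. No group without the steatotic diet was analysed here. Each pool averages 3 pigs, so the spread between pools is smaller than the spread between animals, and the p-values concern the pools. In whole liver, fewer cells of a type and less RNA per cell cannot be told apart.

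A lipid droplet is a core of triglycerides and cholesterol esters under a single layer of phospholipids, and the proteins bound to that layer decide how easily lipases reach the core. PLIN2 is the main droplet coat of hepatocytes, PLIN5 ties droplets to mitochondria in tissues that oxidise fatty acids, and CIDE proteins promote the transfer of lipid from small droplets to larger ones. PNPLA2 (adipose triglyceride lipase) releases the first fatty acid of a triglyceride, ABHD5 activates it and G0S2 inhibits it. In humans, loss-of-function variants of HSD17B13, a droplet protein of hepatocytes, are known for protection from progressive fatty liver disease.

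The pools were alike in overall content. Between 10855 and 11140 genes reached 1 FPKM in a pool, and the summed estimated counts that the authors listed per diet came to 75.9 M for squalene and 76.7 M for control, with no read total per pool in the files used here. Squalene pool 1 had the lowest mean correlation with the other pools (0.977, against 0.981 to 0.984 in the rest) and the highest interferon-stimulated genes, 1.77 above the mean of the 8 pools on the log2 scale (median of 10 genes), where the other pools lay between -0.63 and 0.49. The hepatocyte markers ALB, APOA1, TTR and SERPINA1 summed to 38020 to 61004 FPKM in squalene pools and 34255 to 62343 FPKM in control pools. The adipocyte hormone ADIPOQ was at 0 in every pool except squalene pool 1, where it was 0.05 FPKM.

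HSD17B13 and LOC100520923 were the most abundant members, followed by PLIN2 and CIDEB, and PLIN4 was far below the rest. Over the 8 pools the means were 253 FPKM for HSD17B13, 244 for LOC100520923, 126 for PLIN2, 124 for CIDEB, 46.7 for G0S2, 24.9 for PLIN3, 16.7 for PNPLA2, 11.4 for PLIN5, 6.59 for CIDEC and 0.913 for PLIN4. The order of HSD17B13 over LOC100520923 held in 5 of 8 pools and that of PLIN2 over CIDEB in 3 of 8, so neither pair could be ranked beyond the spread of the pools. Every other neighbour in the order held in 8 of 8 pools, although the ranges over pools of PLIN3 and PNPLA2, PNPLA2 and PLIN5, and PLIN5 and CIDEC overlapped.

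**Figure D1:**
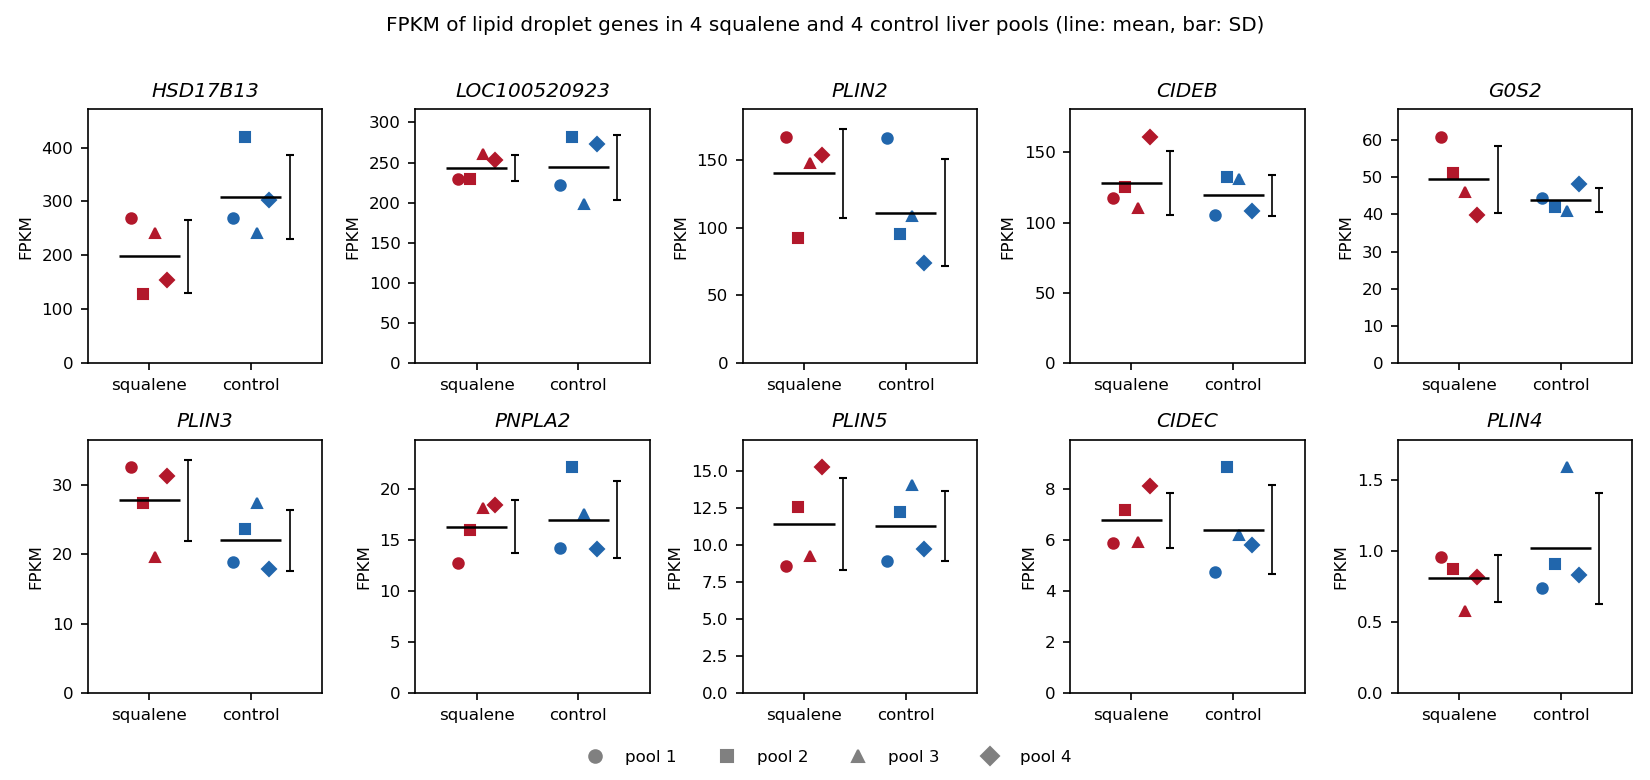
FPKM (y axis, from 0 in each panel) of the 10 lipid droplet genes in the 4 squalene pools (red, left) and the 4 control pools (blue, right) of each panel. Symbols mark pool numbers, horizontal lines are group means and vertical bars are SD. The groups overlap in every panel, and in HSD17B13 the squalene pools 2 and 4 lie below all control pools.

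In the Sscrofa11.1 genome the members lie on 6 chromosomes. HSD17B13 (gene ID 100626886) spans chr8:131555517-131570067 and LOC100520923 chr8:131472582-131541113, both on the plus strand. PLIN2 (397402) spans chr1:203683867-203709277, and 4 members share chromosome 2: PNPLA2 (100049704) at chr2:513065-517962, PLIN3 (595103) at chr2:73970149-73995314, PLIN5 (100142670) at chr2:74304613-74314314 and PLIN4 (100524667) at chr2:74318624-74331920. CIDEB (100127160) is at chr7:74982941-74985776, and the minus strand holds G0S2 (100624161) at chr9:133287065-133288066 and CIDEC (100127161) at chr13:66141836-66149801.

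None of the 10 genes differed between the diets after adjustment over all 14780 genes tested. limma gave an adjusted p = 0.9997 for 9 of them and 0.9998 for PLIN5, and 0% of all genes tested passed that threshold. At an unadjusted p under 0.05, limma singled out 1 of the 10 members (HSD17B13, lower with squalene), where 4.36% of all genes tested, or 645, passed and 2.28% passed as lower. With a pool left out this count ranged from 0 to 2 members. PLIN2, higher with squalene, had an unadjusted p = 0.0417 without squalene pool 2 and 0.0241 without control pool 1, and PLIN3, also higher, had 0.0139 without squalene pool 3 and 0.0416 without control pool 3 (limma, adjusted p from 0.858 to 0.99999 over the alternatives of both genes). The pools of the diets overlapped for 10 of 10 members, against 2.67% of all genes tested whose pools did not overlap. The fitted log2 fold change was above 0 for 7 members and below 0 for 3, with a median of 0.05, while 47.1% of all genes were above 0 and their median was -0.01.

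**Figure D2:**
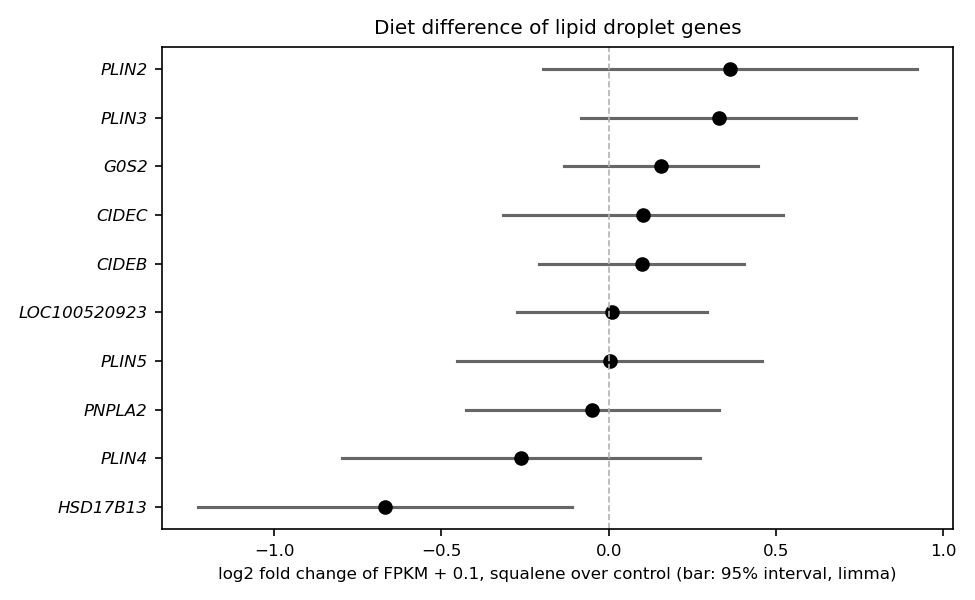
Fitted log2 fold change of FPKM + 0.1, squalene over control (x axis), for the 10 lipid droplet genes (y axis). Points are limma estimates from 4 squalene and 4 control pools and bars are 95% intervals. Only the interval of HSD17B13, -1.23 to -0.11, leaves out 0.

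Among the perilipins, PLIN2 and PLIN3 had the highest fitted fold changes of the 10 members and PLIN5 the one closest to 0. PLIN2 had 167, 92.5, 148 and 153 FPKM in squalene pools 1 to 4, against 166, 95.3, 109 and 74.3 FPKM in control pools 1 to 4. Squalene pool 2 sat with the lower control pools and control pool 1 with the higher squalene pools, so the diets overlapped over most of their range. The means were 140 ± 32.9 FPKM with squalene and 111 ± 39.3 FPKM in control (SD, n = 4 each), and the log2 fold change was 0.36 (SE 0.25, 95% interval -0.19 to 0.92, limma). The part of PLIN2 that shares its strand with the neighbouring locus LOC100737553 spans 785 bases, and reads there could belong to either.

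PLIN3, a perilipin present in most cell types that moves between cytosol and droplets, had 32.6, 27.4, 19.6 and 31.3 FPKM in squalene pools 1 to 4, against 18.9, 23.6, 27.4 and 17.9 FPKM in control pools 1 to 4. Squalene pools 1 and 4 exceeded every control pool, squalene pool 2 lay just under the highest of them, and squalene pool 3 lay within the control range. The log2 fold change was 0.33 (SE 0.18, 95% interval -0.08 to 0.74, limma), with means of 27.7 ± 5.83 FPKM with squalene and 22.0 ± 4.41 FPKM in control (SD, n = 4 each).

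PLIN5 had 8.58, 12.6, 9.25 and 15.3 FPKM in squalene pools 1 to 4, against 8.95, 12.3, 14.1 and 9.77 FPKM in control pools 1 to 4. Each diet had pools at both ends of the range, and the log2 fold change was 0.00 (SE 0.20, 95% interval -0.45 to 0.46, limma). PLIN4, a perilipin best known from adipocytes and muscle, lies 4309 bases downstream of PLIN5 on chromosome 2. It had 0.96, 0.87, 0.58 and 0.82 FPKM in squalene pools 1 to 4, against 0.74, 0.91, 1.59 and 0.83 FPKM in control pools 1 to 4. Control pool 3 was the only pool above 1 FPKM, and the log2 fold change was -0.26 (SE 0.24, 95% interval -0.80 to 0.27, limma). Without control pool 3 it was -0.05. Of the other perilipin, PLIN1, the coat of adipocyte droplets, the pools held 1.53 ± 0.650 FPKM with squalene and 1.67 ± 0.355 FPKM in control (SD, n = 4 each).

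CIDEB, the CIDE protein typical of hepatocytes, was near PLIN2 in level and CIDEC, which serves large droplets in adipocytes and fatty liver, was far lower. CIDEB had 117, 125, 110 and 161 FPKM in squalene pools 1 to 4, against 105, 133, 131 and 108 FPKM in control pools 1 to 4. Squalene pool 4 was the highest of the 8 pools and the other 3 lay within the control range, and the log2 fold change was 0.10 (SE 0.14, 95% interval -0.21 to 0.40, limma). The annotated span of CIDEB overlaps LTB4R2 on the opposite strand by 871 bases and NOP9 by 29 bases, and whether strand entered the counting is not stated in these sources.

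CIDEC had 5.89, 7.17, 5.91 and 8.12 FPKM in squalene pools 1 to 4, against 4.74, 8.86, 6.20 and 5.81 FPKM in control pools 1 to 4. The highest and the lowest pool were both control pools, and the log2 fold change was 0.10 (SE 0.19, 95% interval -0.31 to 0.52, limma). CIDEC overlaps LOC106505669 on the opposite strand by 3063 bases. The ratio of CIDEC to CIDEB stayed between 0.0502 and 0.0573 in squalene pools and between 0.0450 and 0.0667 in control pools, and the difference of its mean log2 value was 0.01 (exact permutation test, two-sided, p = 0.971). CIDEA, the third CIDE protein, had 0.82 ± 0.286 FPKM with squalene and 0.927 ± 0.469 FPKM in control (SD, n = 4 each).

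HSD17B13 showed the largest fitted difference of the 10 members. It had 270, 129, 242 and 154 FPKM in squalene pools 1 to 4, against 270, 420, 241 and 302 FPKM in control pools 1 to 4. Squalene pools 2 and 4 lay below every control pool, while squalene pools 1 and 3 matched the 2 lowest control pools and no squalene pool exceeded the control mean. The means were 199 ± 67.8 FPKM with squalene and 308 ± 78.7 FPKM in control (SD, n = 4 each), or 0.644 of the control mean. limma gave a log2 fold change of -0.67 (SE 0.25, 95% interval -1.23 to -0.11), an unadjusted p = 0.0236 that ranked 283 among 14780 genes, and an adjusted p = 0.9997. The size of the fold change exceeded that of 97.3% of the genes tested. The gene also varied widely between pools, with an SD over the 8 pools of 0.54 on the log2 scale, above that of 90.1% of genes.

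The unadjusted p of HSD17B13 was above 0.05 when any of 3 pools was left out. It was 0.0694 without squalene pool 2, 0.0640 without squalene pool 4 and 0.0721 without control pool 2, with log2 fold changes of -0.48, -0.57 and -0.51. Without squalene pool 1, the pool with the raised interferon-stimulated genes, the log2 fold change was -0.84 and the adjusted p was 0.860 (limma, 0.858 to 0.99999 over the alternatives). Several cell type markers were at an end of their range in squalene pools 2 and 4, the lowest pools for HSD17B13, some high and others low. Of the hepatocyte markers, SERPINA1 was lowest in these pools, with 958 and 1090 FPKM, against 1130 to 2077 FPKM in all the others, whereas ALB, at 46640 and 49354 FPKM, made up most of their hepatocyte sums of 56874 and 61004 FPKM, which lay in the upper part of the range. The 5 cholangiocyte markers summed to 14.1 and 17.4 FPKM in squalene pools 2 and 4 and to at most 9.42 FPKM elsewhere. The 8 stellate cell markers summed to 207 and 171 FPKM in these pools and to at most 153 FPKM elsewhere. The T and NK cell markers went the other way, with sums of 36.3 and 29.8 FPKM in these pools and at least 38.2 FPKM elsewhere. Of the macrophage markers, MARCO was highest in these pools (127 and 120 FPKM) and CD68 was lowest in them (97.7 and 110 FPKM). Not every marker followed its sum. Of the stellate cell markers, COL3A1, COL1A1 and DCN were highest in these pools, whereas DES was lowest in them (4.41 and 4.59 FPKM). LRAT (3.42 FPKM) and RELN (4.52 FPKM) were lowest in squalene pool 4. Of the cholangiocyte markers, SOX9 was highest in squalene pool 1 (0.31 FPKM). The part of cell content in the HSD17B13 levels was not tested.

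LOC100520923, the stand-in for HSD17B11, sits directly upstream of HSD17B13 on the same strand of chromosome 8, with 14403 bases between them. HSD17B11 is a closely related dehydrogenase that is likewise bound to lipid droplets. Its row had 230, 229, 261 and 253 FPKM in squalene pools 1 to 4, against 221, 282, 199 and 273 FPKM in control pools 1 to 4. The squalene pools all lay inside the control range, and the log2 fold change was 0.01 (SE 0.13, 95% interval -0.27 to 0.29, limma). Over the 8 pools its SD was 0.17 on the log2 scale, against 0.54 for HSD17B13. The locus overlaps NUDT9 on the opposite strand by 403 bases.

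The ratio of HSD17B13 to LOC100520923 within each pool was 1.17, 0.561, 0.926 and 0.609 in squalene pools 1 to 4, against 1.22, 1.49, 1.21 and 1.11 in control pools 1 to 4. All control pools were above 1 and 3 of 4 squalene pools were below it, with squalene pool 1 inside the control range. The difference of the mean log2 ratio was -0.68, the largest of the 5 ratios compared (exact permutation test over 70 assignments, two-sided, p = 0.0571, adjusted over the 5 ratios 0.286). The smallest p that 4 against 4 pools allow is 0.0286. Without squalene pool 1 the difference was -0.87. Because that was the only squalene pool inside the control range, leaving it out had to give the smallest p that 3 against 4 pools allow (exact permutation test, unadjusted p = 0.0286). That p-value adds no support. Leaving out squalene pool 2 or 4, which had the lowest ratios, made the difference smaller. Leaving out control pool 2, which had the highest ratio, also made it smaller. Since the 2 genes are counted in the same library, this ratio does not depend on how the libraries were scaled.

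PNPLA2 had 12.8, 16.0, 18.2 and 18.4 FPKM in squalene pools 1 to 4, against 14.3, 22.2, 17.6 and 14.1 FPKM in control pools 1 to 4. Control pool 2 was the highest and squalene pool 1 the lowest, and the log2 fold change was -0.05 (SE 0.17, 95% interval -0.43 to 0.33, limma). G0S2 had 60.9, 51.1, 46.0 and 39.8 FPKM in squalene pools 1 to 4, against 44.5, 42.1, 40.9 and 48.1 FPKM in control pools 1 to 4. The squalene pools spread beyond the control pools on both sides, and the log2 fold change was 0.16 (SE 0.13, 95% interval -0.13 to 0.45, limma).

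The ratio of the inhibitor to the lipase, G0S2 to PNPLA2, was 4.76, 3.19, 2.53 and 2.16 in squalene pools 1 to 4, against 3.11, 1.90, 2.33 and 3.40 in control pools 1 to 4. Squalene pool 1 held the highest ratio, and the difference of the mean log2 ratio was 0.21 (exact permutation test, two-sided, p = 0.543). Without squalene pool 1 it was -0.01. The ratio of PLIN5 to PLIN2 differed by -0.36 between the diets (exact permutation test, p = 0.4) and that of PLIN4 to PLIN2 by -0.65 (p = 0.229), squalene minus control on the log2 scale. Single pools moved both values: the first was -0.14 without squalene pool 1 and -0.68 without control pool 1, and the second was -0.43 without control pool 3 and -0.9996 without control pool 1.

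**Figure D3:**
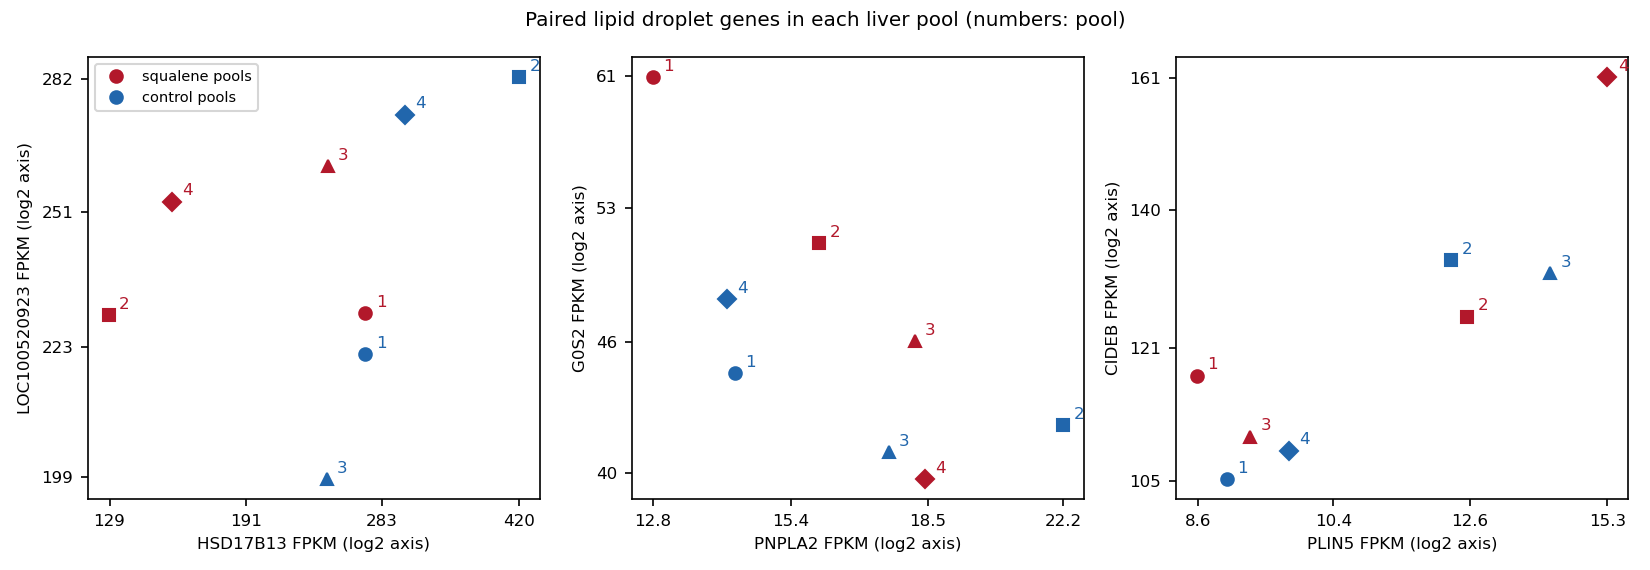
FPKM of 2 lipid droplet genes against each other in each pool, both axes on a log2 scale: LOC100520923 against HSD17B13 (left), G0S2 against PNPLA2 (middle) and CIDEB against PLIN5 (right), with squalene pools in red, control pools in blue and pool numbers beside the points. HSD17B13 spans 129 to 420 FPKM while LOC100520923 spans 199 to 282, and the Pearson r over the 8 pools is -0.72 for G0S2 with PNPLA2 and 0.88 for CIDEB with PLIN5.

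Across the 8 pools, PLIN5, CIDEB, CIDEC and PNPLA2 had positive correlations with each other and G0S2 had negative ones with all of them, while the strongest value of PLIN2 or HSD17B13 with any member was -0.44, between HSD17B13 and PLIN3. Of the 45 pairs of members, 25 had a positive Pearson r of log2(FPKM + 0.1) and 20 a negative one, with a median of 0.03. No pair passed 0.05 after adjustment over the 45 pairs (exact permutation, smallest adjusted p 0.137 for Pearson's r and 0.1004 for Spearman's rho). At an unadjusted exact permutation p under 0.05 there were 5 pairs by Pearson's r and 4 by Spearman's rho. The points of each correlation share their libraries, and squalene and control pools enter together unless stated.

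The closest pair was PLIN5 and CIDEB, with r = 0.88 (exact permutation p = 0.00305, adjusted 0.137) and rho = 0.762 (exact permutation p = 0.0368, adjusted 0.467). Squalene pool 4 was the highest of the 8 pools for both genes. Without the 2 pools farthest from the median of PLIN5 r was 0.80, and after subtracting the mean of each diet it was 0.91. With each pool scaled by its median ratio to the mean pool, this pair alone passed the threshold, with r = 0.92 (exact permutation, adjusted p = 0.0190). It did not pass with pools scaled to an equal FPKM total, with 1 added in place of 0.1, or after subtracting diet means (exact permutation, adjusted p = 0.145, 0.133 and 0.156).

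CIDEB and CIDEC had r = 0.81 (exact permutation p = 0.0144, adjusted 0.324) and rho = 0.929 (exact permutation p = 0.00223, adjusted 0.1004), and r = 0.73 without the 2 farthest pools. CIDEC and PNPLA2 had r = 0.75 (exact permutation p = 0.0345, adjusted 0.375) and rho = 0.810 (exact permutation p = 0.0218, adjusted 0.467). Without the 2 pools farthest from the median of CIDEC r was 0.36, and with any single pool left out it lay between 0.56 and 0.82. PLIN3 and CIDEB had r = 0.71 (exact permutation p = 0.0421, adjusted 0.375) and rho = 0.667 (exact permutation p = 0.0831, adjusted 0.467), and r = 0.50 without the 2 farthest pools.

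PNPLA2 and G0S2, the lipase and its inhibitor, had the lowest value of the 45 pairs, r = -0.72 (exact permutation p = 0.0378, adjusted 0.375) and rho = -0.738 (exact permutation p = 0.0458, adjusted 0.467). Squalene pool 1 had the lowest PNPLA2 and the highest G0S2 of the 8 pools. After subtracting the mean of each diet r was -0.75, and without the 2 pools farthest from the median of PNPLA2 it was -0.53. PLIN2 and HSD17B13, the members with the widest spread on the log2 scale, had r = -0.13 with each other.

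**Figure D4:**
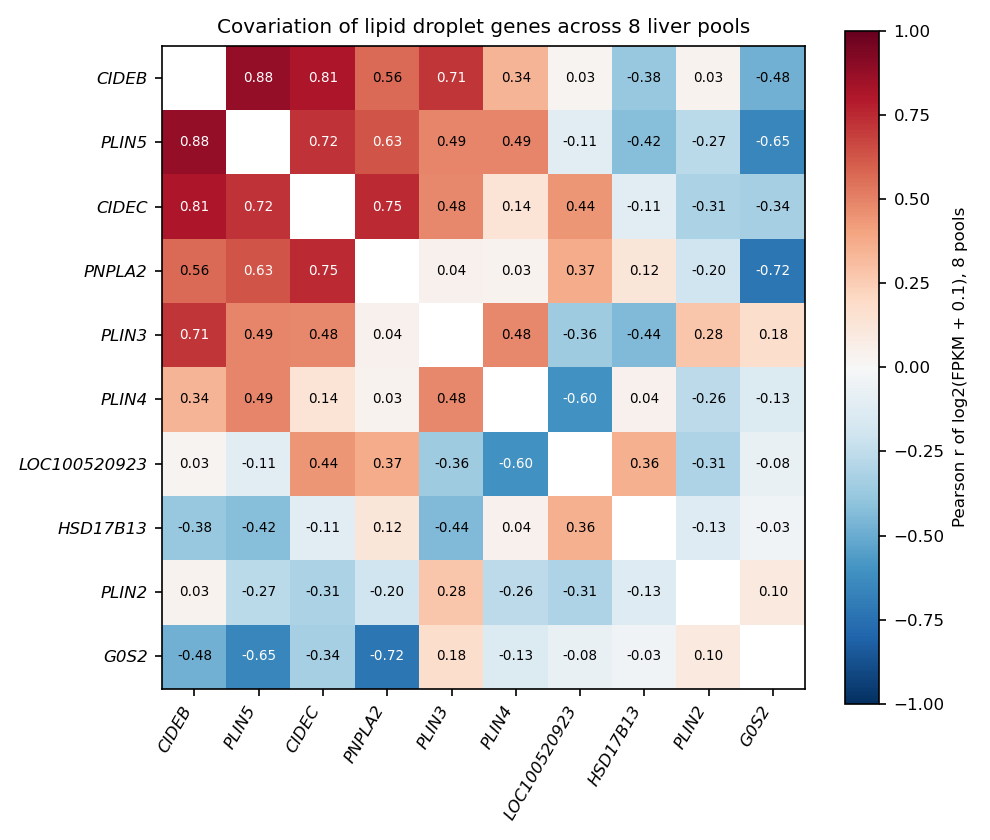
Pearson r of log2(FPKM + 0.1) over the 8 liver pools for each pair of lipid droplet genes, in colour (red positive, blue negative) with the value in each cell. CIDEB, PLIN5, CIDEC and PNPLA2 form a block of positive values from 0.56 to 0.88, and G0S2 is negative with these 4 genes, from -0.34 to -0.72.

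For each member, the genes with the most similar profile over the 8 pools were looked up among 10269 or 10270 other named genes averaging 1 FPKM or more, as a description without a test. With so many genes and 8 points, high r values arise for any profile. Nearest to PNPLA2 was CPT1A, the gate of fatty acid entry into mitochondria (r = 0.97), with 23.2, 30.4, 41.4 and 41.9 FPKM in squalene pools 1 to 4, against 24.9, 47.7, 34.7 and 25.8 FPKM in control pools 1 to 4. As in PNPLA2, control pool 2 was the highest and squalene pool 1 the lowest, and the next genes were TBC1D17 and RNF26 (r = 0.97 each). Nearest to CIDEB was ACSL1, which activates long-chain fatty acids (r = 0.96), with 330, 376, 353 and 595 FPKM in squalene pools 1 to 4, against 303, 481, 417 and 338 FPKM in control pools 1 to 4. Squalene pool 4 was the highest and control pool 1 the lowest for both genes.

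The profile of HSD17B13 was closest to those of TRIM4 (r = 0.98), ARHGAP42 (r = 0.97) and the complement gene C4A (r = 0.96). C4A had 272, 167, 303 and 199 FPKM in squalene pools 1 to 4, against 296, 387, 314 and 325 FPKM in control pools 1 to 4, with squalene pools 2 and 4 lowest as for HSD17B13. The nearest gene was TMEM82 for PLIN5 (r = 0.98), LYPLA1 for CIDEC (r = 0.97), ZGPAT for PLIN2 (r = 0.96), LMAN2L for G0S2 (r = 0.95), BDH1 for PLIN3 (r = 0.94), ACSM2B for LOC100520923 (r = 0.93) and FXYD7 for PLIN4 (r = 0.92). Next in order came ENTPD8 and RTN4IP1 for PLIN5 and NBL1 and ACAD10 for CIDEC (r = 0.93 to 0.94), and for LOC100520923 they were MCFD2 and AMACR, an enzyme of branched-chain fatty acid oxidation (r = 0.92 each).

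Other genes of the droplet gave no call either. Of 22 further droplet proteins and droplet biogenesis genes tested with limma, 0 passed the adjusted threshold and 0 an unadjusted p under 0.05, with 4 fold changes above 0 and 18 below and a median of -0.10, against -0.01 over all genes. The smallest p belonged to METTL7A, a methyltransferase-like protein of droplets, with 51.2 ± 12.7 FPKM in squalene pools and 65.8 ± 12.6 FPKM in control pools (SD, n = 4 each). Its log2 fold change was -0.38 (limma, unadjusted p = 0.0858). With a pool left out it ranged from -0.21 without squalene pool 1 to -0.50 without control pool 3 (limma, unadjusted p = 0.0360, adjusted p = 0.958 for the latter). Seipin (BSCL2), which shapes nascent droplets, had 11.6 ± 1.05 FPKM in squalene pools and 12.5 ± 1.01 FPKM in control pools.

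Of 18 other neutral lipid lipases and cofactors tested, 0 passed the adjusted threshold and 1 an unadjusted p under 0.05 (limma), where 4.36% of all genes tested passed the latter. The median log2 fold change of the 18 was -0.05. The gene that passed was CES1, a carboxylesterase that hydrolyses triglycerides and cholesterol esters, with 365 ± 18.3 FPKM in squalene pools and 431 ± 48.4 FPKM in control pools (SD, n = 4 each). Its pools did not overlap (345 to 384 FPKM with squalene, 401 to 503 FPKM in control), as was so for 2.67% of all genes tested. The log2 fold change of CES1 was -0.23 (limma, unadjusted p = 0.0487, adjusted p = 0.9997). Without control pool 4, the highest at 503 FPKM, it was -0.16 (limma, unadjusted p = 0.158). The unadjusted p of CES1 was also above 0.05 without control pool 1 and without any single squalene pool (limma, 0.0510 to 0.110). ABHD5, the activator of PNPLA2, had 77.7 ± 17.8 FPKM in squalene pools and 69.995 ± 19.6 FPKM in control pools, and LIPE, the hormone-sensitive lipase, was under 1 FPKM in every pool.

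Of 8 other HSD17B enzymes tested, 0 passed either threshold (limma). The smallest p belonged to HSD17B4, an enzyme of peroxisomal β-oxidation, with 203 ± 5.04 FPKM in squalene pools and 178 ± 20.7 FPKM in control pools (SD, n = 4 each). Its log2 fold change was 0.20 (limma, unadjusted p = 0.0821). It was 0.13 without control pool 1 and 0.26 without control pool 2 (limma, unadjusted p = 0.0246, adjusted p = 0.99999 for the latter). Of 13 genes of lipophagy and chaperone-mediated autophagy and of 14 fatty acid genes regulated by PPARα, 0 and 0 passed either threshold (limma), with medians of -0.02 and 0.06. The smallest p of the PPARα list belonged to FABP1, the fatty acid carrier of liver, with 1923 ± 1132 FPKM in squalene pools and 1187 ± 213 FPKM in control pools (SD, n = 4 each, log2 fold change 0.55, limma, unadjusted p = 0.123). Squalene pool 2 alone had 3567 FPKM, against 1036 to 1727 FPKM in the other squalene pools and 911 to 1428 FPKM in the control pools. The log2 fold change of FABP1 was 0.20 without that pool. It was 0.79 without squalene pool 3 (limma, unadjusted p = 0.0274, adjusted p = 0.903).

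The adipocyte markers, which would accompany fat tissue in a sample, summed to 37.0 to 136 FPKM in squalene pools and 65.1 to 84.0 FPKM in control pools, nearly all of it FABP4, which macrophages also express. Of the 7 adipocyte markers, 5 had a row, none of the 3 tested passed a threshold, and ADIPOQ, RETN, PLIN1 and CIDEA stayed at or under 2.25 FPKM in every pool. The macrophage markers summed to 1026 to 1195 FPKM in squalene pools and 1007 to 1316 FPKM in control pools, with 0 of 7 past either threshold. Among the stellate cell markers, RGS5 alone had an unadjusted p under 0.05 (limma, 0.0261, adjusted p = 0.9997), where 4.36% of all genes tested passed. It had 4.995 ± 2.49 FPKM in squalene pools and 2.14 ± 1.03 FPKM in control pools. The unadjusted p of RGS5 was above 0.05 without squalene pool 1 or 3 or control pool 1, 2 or 4 (limma, 0.0515 to 0.0760). It was lowest without squalene pool 4 (limma, 0.00134, adjusted p = 0.865). The part of these cell types in the levels of the droplet genes was not tested.

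The files also list single-base variants and splicing events. Of 269579 variant sites, 145 lay in 8 of the members and none in CIDEB and PLIN5, and of the 145 sites 82 were intronic, 48 exonic outside the coding sequence and 15 coding. LOC100520923 held 58 sites, HSD17B13 32, G0S2 17, PNPLA2 13, PLIN2 8, CIDEC 8, PLIN3 7 and PLIN4 2. Each site has 1 letter per pool of 3 pigs, so allele shares within a pool are unknown, and no site separated the squalene pools from the control pools. None of the 61 splicing events listed fell in a member.

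Some of the 15 coding sites of members are printed here as 29 bases of the reference genome (Sscrofa11.1). They run 5′ to 3′ on the strand of the gene, with the variable base at position 15 in capitals. They are the only coding site of HSD17B13 and the 3 coding sites of members whose non-reference base was called in pools of 1 diet only. At all the coding sites not printed, the non-reference base was called in pools of both diets.
HSD17B13 (plus strand, chr8:131560767-131560795): ctatttcaaaaggtAaagaaagaagtggg
CIDEC (minus strand, chr13:66144631-66144659): tcttacacagggcaCtaggtaccaactct
PLIN4 (plus strand, chr2:74326322-74326350): gcaccaaagatgccAtgtccactgggctc
G0S2 (minus strand, chr9:133287696-133287724): gagccgagatggaaAcgatccaggagctg

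At the HSD17B13 site the substitution A15G, counted from 1 at the 5′ end of the printed sequence, was called in 4 of 4 squalene and 4 of 4 control pools, high and low HSD17B13 levels alike. The CIDEC substitution C15G was called in 3 of 4 squalene pools (1, 2 and 4) and 0 of 4 control pools. The PLIN4 substitution A15G was called in 2 of 4 squalene pools (2 and 4) and 0 of 4 control pools, and the G0S2 substitution A15T in 0 of 4 squalene pools and 2 of 4 control pools (1 and 4). Outside the coding sequence, 42 exonic sites of members were covered in 8 pools, and at 11 of them the non-reference base was called in pools of 1 diet only, in a single pool at 9 sites. The widest of these was in HSD17B13, at position 131555621 of chromosome 8, with a non-reference base in 0 of 4 squalene pools and in 3 of 4 control pools (1, 3 and 4). Control pool 2, the highest for HSD17B13, carried the reference base there, as did all squalene pools. The relation of these calls to the levels was not tested. The share of sites called in 1 diet only among all 269579 variant sites was not counted. The counts given for the members are therefore not known to be unusual.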

How the data were processed

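Reads were filtered and aligned to Sscrofa11.1 with HISAT2 by the authors, who deposited one FPKM value per gene and pool. No tool or strand setting was named for the FPKM step in the sources used here. A second deposited table holds estimated counts (expected counts that need not be whole) added over the pools of each diet, used here only as totals, beside the authors' own fold changes and p-values, which were not used. The variant table and the 4 splicing tables were used for counts of sites and events only, and gene positions came from the RefSeq annotation of the same build.

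FPKM values were taken as log2(FPKM + 0.1), and genes averaging 0.1 FPKM or more were compared between 4 squalene and 4 control pools with limma 3.58.1 (R 4.3.3, variance trend), with Benjamini-Hochberg adjustment over all 14780 genes and a threshold of 0.05. Fold changes on this scale understate those of genes near 0.1 FPKM. Ratios of members were compared with two-sided exact permutation tests, and pairs of members with exact permutation tests of r and rho (Python 3.11.15, numpy 2.4.6). The limma step was tested on simulated data with changes larger than those fitted for the members, so that test does not cover effects of their size. The text names the members, from each gene list some of the 4 genes with the smallest p and others picked for their role after their values were seen, and from the 3 genes most like each member the closest. The members and lists were chosen with earlier results of these data known. The symbols TF and GZMA each had more than 1 row and were left out of the marker lists. The depth of a single pool is not known, so no counting interval is given. Alternatives covered the pseudocount, the filter, the scaling, the variance trend, the pool number as a block and each pool left out. Leaving out pools for named genes that are not members was chosen after seeing the data.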

Additional observations from a re-analysis of the deposited data

Results flagged for a closer look

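The ratio of PLIN5 to PLIN2 in control pool 1 stood apart from the other control pools. It was 0.0539, where the other 3 control pools lay between 0.129 and 0.131, and the 4 squalene pools had 0.0513, 0.136, 0.0627 and 0.0997. The pool combined the highest PLIN2 of the control group (166 FPKM) with its lowest PLIN5 (8.95 FPKM). Of 30 groups of 4 values checked in this way 1 stood out, and chance alone would single out about 1 in 20.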

How the results depend on the processing

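HSD17B13 stayed below 0 in all 17 alternatives, with log2 fold changes of -0.84 to -0.48, and PLIN2 (0.19 to 0.58), PLIN3 (0.24 to 0.48) and G0S2 (0.05 to 0.26) stayed above it. The unadjusted count of 1 member was 0 with the pool number as a block and 0 to 2 with a pool left out. No member passed the adjusted threshold under any alternative. Across all genes, where the main count was 0, 1 gene passed without a variance trend (LOC110259523, adjusted p = 0.0448, limma) and 0 to 1 with a pool left out (LOC110256963 without control pool 2, adjusted p = 0.0346). Members near 0 changed sign: with a pool left out, the log2 fold change ranged from -0.15 to 0.13 for PLIN5 (-0.0068 under quantile normalization), -0.13 to 0.086 for PNPLA2, -0.085 to 0.085 for LOC100520923, -0.016 to 0.17 for CIDEB and -0.026 to 0.27 for CIDEC. Likewise the log2 ratio difference ranged from -0.067 to 0.12 for CIDEC to CIDEB (-0.0091 with a pseudocount of 1) and from -0.013 to 0.37 for G0S2 to PNPLA2. Among pairs of members, 1 passed the threshold under median scaling. The causes were not tested. With the pool number as a block, 0 genes passed, no adjusted call changed, and HSD17B13 had an unadjusted p = 0.0524 in place of 0.0236 (limma, adjusted p = 0.985). The labels state no pairing of the pools by number, and deviations of same-numbered pools correlated at 0.09, 0.02, 0.03 and -0.07. Squalene pool 1 correlated best with control pool 1, and each other squalene pool with a control pool of another number. Whether same-numbered pools shared a handling step was not tested.

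With 4 pools per diet, intervals of the members were wide. That of PLIN2 reached from -0.19 to 0.92 on the log2 scale, so the diets are not shown to be alike for any member. Pooling hides the spread between pigs, and PLIN4, at about 1 FPKM, rests on the fewest reads (411 and 528 added estimated counts over the squalene and the control pools).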
